A study of Mus musculus with 3 samples.

Results

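Lhx1-negative BELA endoderm is the part of the endoderm layer of bilayered embryo-like aggregates (BELAs) in which no transcript of Lhx1, a transcription factor gene of the anterior visceral endoderm (AVE), was captured. It was set against the endoderm of VE cysts, which were grown from cultures directed to endoderm alone. Cells were chosen from single-cell transcriptomes. Barcodes had at least 4000 genes and at most 10% mitochondrial counts. A cell was called visceral endoderm (VE) when its counts of Gata6, Sox17, Dab2 and Cubn exceeded those of the epiblast genes Pou5f1, Sox2, Nanog and Fgf4. The members were the BELA VE cells with no Lhx1 count and under 500 CPM (counts scaled to a fixed total per cell) summed over Sfrp1, Lhx1, Otx2, Gsc, Fgf8 and Gpc4. This gave 249 cells of 542 VE cells in BELAs (45.9%, exact binomial interval 41.7 to 50.2%) and of 2692 cells in the series. The comparison group was all 577 VE cells of VE cysts. Of 625 VE cyst cells past the filter, 44 had more epiblast than VE gene counts, so that library held some epiblast-like cells.

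Both models came from 1 clone (C6) of iGATA mouse embryonic stem cells of the E14tg2a strain, in which doxycycline switches on a GATA4 transgene. For BELAs, cells received 0.5 µg/ml doxycycline for 8 h in 2i + LIF, then 16 h of N2B27 without it. The resulting mixture of epiblast (Epi) and endoderm cells was reseeded in N2B27 for 3 days. For VE cysts, the 16 h in N2B27 kept doxycycline and added FGF4 at 10 ng/ml with heparin at 1 µg/ml, and both stayed in the medium for the 3 days after reseeding. The third library, Epi cysts, came from cells without doxycycline grown in matrigel. Each condition was 1 library, so no test between conditions was possible. All intervals below cover counting error only. Contact with Epi cells, the length of the doxycycline pulse and added FGF4 with heparin differed together between the libraries and cannot be told apart.

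The VE is the outer, absorptive epithelium of the early mouse conceptus. It takes up maternal proteins through the cubilin, amnionless and megalin receptors, degrades them in lysosomes and secretes apolipoproteins and carrier proteins. Its embryonic part lies on the epiblast and gives rise to the AVE, its extraembryonic part makes serum proteins such as AFP and transthyretin in quantity, and its sister tissue, the parietal endoderm, lays down a thick basement membrane of type IV collagen, laminin and SPARC.

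The 249 cells held 22258344 unique molecular identifiers (UMIs), with a median of 81885 per cell, against 56914 in VE cyst endoderm, whose cells held 35486932 in all. The median mitochondrial share was 4.52% against 5.45% in VE cyst endoderm. The other 293 VE cells of BELAs were deeper (median 99278 UMIs), and a shallow cell misses an Lhx1 transcript more easily. Of 250 BELA VE cells with no Lhx1 count, 1 exceeded the limit on AVE genes, at 1509 CPM. The highest member had 407 CPM and the median member 6.03 CPM. A further 215 BELA VE cells had an Lhx1 count but stayed under the same limit, so the members are not all the cells of BELAs with low AVE genes. The BELA and VE cyst libraries shared 0 barcodes.

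The choice of cells fixed 14 genes, which are given as a description. Gata6 had a level of 291 CPM in Lhx1-negative BELA endoderm and 298 CPM in VE cyst endoderm, and Sox17 had 164 and 156 CPM. Dab2, an endocytic adaptor, had 1389 CPM in Lhx1-negative BELA endoderm and 1529.6 CPM in VE cyst endoderm. Cubn, the cubilin receptor, had 659.7 CPM against 1019 CPM in VE cyst endoderm. The smallest margin of VE over Epi counts in a member was 1 UMI, and the nearest BELA cell outside missed by 1 UMI (-1), while the lower quartile of the members' margin was 107 UMIs.

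A small set of members had a raised ratio of Epi to VE marker counts. In 19 of the 249 cells, the 4 Epi genes held over 10% as many UMIs as the 4 VE genes. These 19 cells had a median of 143706 UMIs, against 80470 in the other 230, and the doublet caller Scrublet marked 14 of the 249 cells, 12 of them among these 19. Their median was 38 UMIs of the 4 Epi genes, against 1 in the other 230, but 2 of the 19 had under 10. A panel of 35 Epi-specific genes outside the rule stood at a median of 11.4% of its Epi level in all 249 cells (quartiles 8.51 to 13.9%), and at 4.28% (2.00 to 6.46%) in the 230 cells. By their panel level, 16 of the 19 cells were among the 19 highest members, so the 230 cells still held some with high Epi transcripts. In VE cysts, 5 of 577 cells passed the same mark. Values are therefore given for all 249 cells and, where it matters, for the 230 cells, and the genes named by rule as higher are divided by whether they exceeded their level in the 868 Epi cells of the same BELAs.

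Of 9742 genes outside the rule with at least 5 CPM in either group, 110 (1.13%) were at least 2-fold higher in Lhx1-negative BELA endoderm than in VE cyst endoderm and 241 (2.47%) at least 2-fold lower, or 351 (3.6%) in either direction. Here and below, 2-fold refers to the log2 ratio of levels with 5 CPM added to each, a scale that understates the change of low genes. The median over all genes was -0.14. Among the 230 cells, 104 genes (1.07%) were higher and 231 (2.37%) lower, 3.44% in either direction, and these included 93 of the 110 and 211 of the 241. Of the 110 higher genes, 63 had a level above that in Epi cells of BELAs, and all 63 were also 2-fold higher in the 230 cells. The other 47 were at or under the Epi level, and 30 of them were 2-fold higher in the 230 cells. Of all 9742 genes tested, 4943 also stood above the Epi level, so the 63 alone do not set the higher genes apart. That all 63 stayed follows in part from the division, since leaving out cells with Epi transcripts lowers such genes little.

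**Figure D1:**
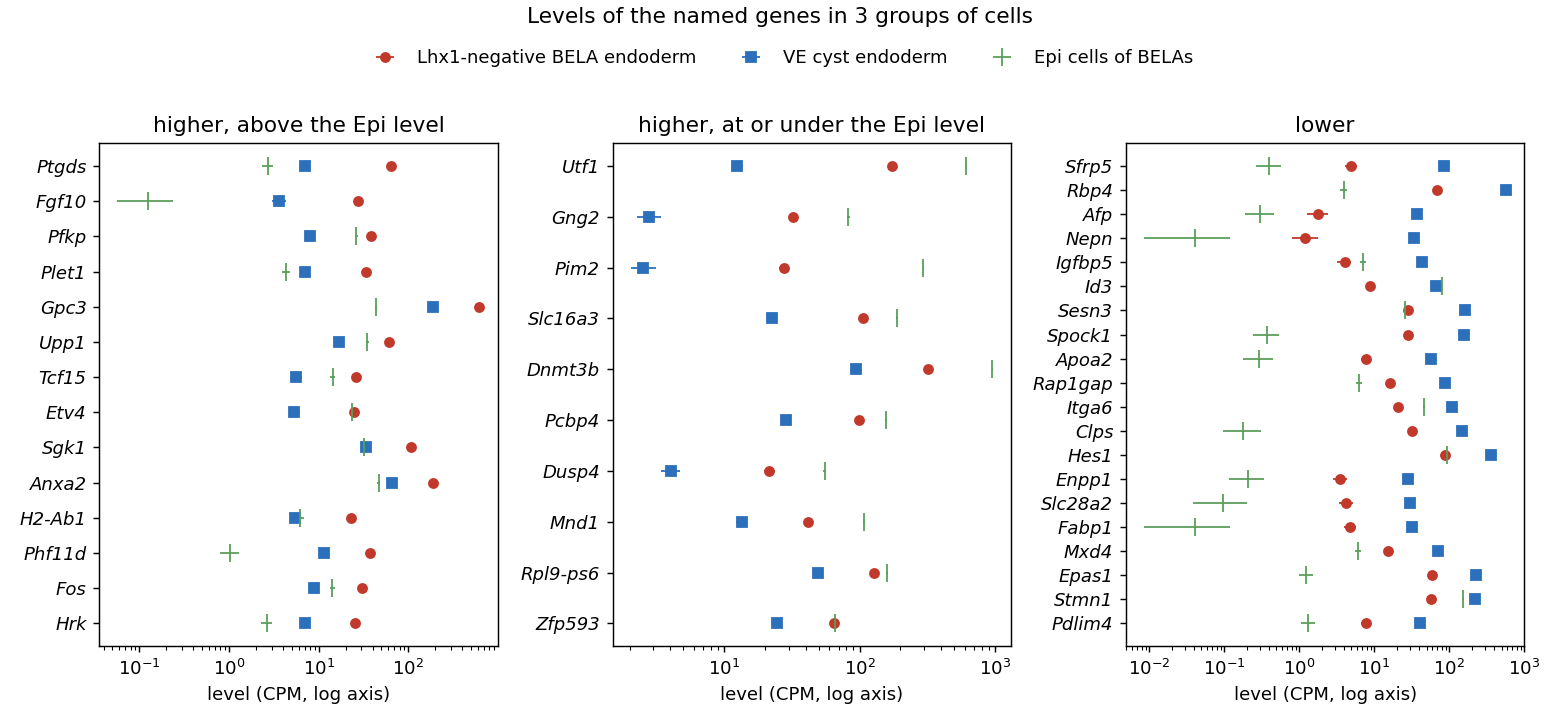
Levels in CPM on a log axis of 44 genes named by rule, in Lhx1-negative BELA endoderm (red circles), VE cyst endoderm (blue squares) and Epi cells of BELAs (green bars), with exact Poisson intervals for counting error. The left panel holds 14 higher genes above the Epi level, the middle panel 10 higher genes at or under it, and the right panel 20 lower genes. Utf1 lies at 173 CPM between the VE cyst level of 12.5 CPM and the Epi level of 615 CPM.

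Among the higher genes above the Epi level were growth factor and cell surface genes. Ptgds, which encodes a prostaglandin D synthase, had 63.9 CPM (60.7 to 67.3) in Lhx1-negative BELA endoderm against 7.10 CPM (6.25 to 8.03) in VE cyst endoderm, a ratio of 9.00 (7.87 to 10.3), with 2.72 CPM in Epi cells. Its counts were uneven. With each cell thinned to 40000 UMIs, 41.2% of the cells had a Ptgds UMI against 8.88% of VE cyst cells, and the 10% of Lhx1-negative BELA cells with the most held 70.3% of its UMIs. In the other VE cells of BELAs 69.0% had a Ptgds UMI, so the higher level was not particular to Lhx1-negative cells. Fgf10, a ligand of FGF receptor 2, had 27.4 CPM against 3.61 CPM in VE cyst endoderm, a ratio of 7.59 (6.26 to 9.25). Epi cells had 0.125 CPM of Fgf10. After thinning, 48.9% of Lhx1-negative BELA cells (42.3 to 55.5%) held a Fgf10 UMI, against 10.1% of VE cyst cells (7.58 to 13.2%) and 0.499% of Epi cells. The share in the other VE cells of BELAs was 55.5%.

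Gpc3, a glypican that binds heparan sulfate ligands at the cell surface, was the most abundant gene of this set, at 611 CPM against 189 CPM in VE cyst endoderm (ratio 3.24, 3.15 to 3.34) and 43.7 CPM in Epi cells. The median cell held 23 Gpc3 UMIs of 40000, against 4 in VE cysts, so the difference lay in the bulk of the cells. The median of the other VE cells of BELAs was 30 UMIs. Plet1, a surface protein of several epithelial progenitors, had 33.5 against 7.07 CPM in VE cyst endoderm, and 4.33 CPM in Epi cells. After thinning, 54.1% of Lhx1-negative BELA cells and 59.1% of the other VE cells of BELAs held a Plet1 UMI. Anxa2, a membrane-binding annexin, had 186 CPM against 65.8 CPM in VE cyst endoderm. The other VE cells of BELAs had 43.9 CPM of Anxa2, under the VE cyst level. H2-Ab1, a class II antigen gene, had 23.2 CPM against 5.52 CPM in VE cyst endoderm, with 8.40 CPM in the other VE cells of BELAs. Further genes of this set were Upp1, Tcf15, Etv4, Sgk1, Pfkp, Phf11d, Fos and Hrk, with ratios from 3.15 (Sgk1, a serum-responsive kinase) to 4.78 (Pfkp). After thinning, more of the other VE cells of BELAs than of the Lhx1-negative cells held a UMI of Tcf15, Etv4, Sgk1, Phf11d and Hrk. For Upp1, Pfkp and Fos the share was larger in the Lhx1-negative cells.

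The formative epiblast list held genes of the state that follows naive pluripotency, and also naive genes such as Esrrb, Zfp42, Klf2 and Klf4. Its genes were higher in part. Of 17 listed genes, 14 passed the level filter and 5 were 2-fold higher, with a median log2 ratio of 0.57 against -0.14 over all genes. In the 230 cells the count was 4 and the median 0.26. Utf1, a chromatin-associated factor of pluripotent cells, had 173 CPM (168 to 179) against 12.5 CPM (11.4 to 13.8) in VE cyst endoderm, a ratio of 13.8 (12.5 to 15.3). It kept 139 CPM in the 230 cells, 22.7% of its Epi level, where the panel median was 4.28% and its highest gene, Gng2, stood at 32.9%. Dnmt3b, the de novo DNA methyltransferase, had 320.4 CPM against 94.9 CPM in VE cyst endoderm, and 279.8 CPM in the 230 cells, or 29.2% of its Epi level, so that both lay above the panel's quartiles but inside its range. The panel was chosen without genes of the formative list, so it does not show how the genes of that list stood. Utf1 UMIs were found in 84.1% of thinned cells (78.8 to 88.6%), against 16.3% of VE cyst cells (13.1 to 19.9%). The share was 97.9% in the other VE cells of BELAs, with a mean of 11.4 UMIs against 6.18 in Lhx1-negative cells. For Dnmt3b these means were 13.5 and 11.7 UMIs, so neither gene was particular to Lhx1-negative cells.

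Correlations across single cells are given as a description. Across 214 thinned cells of the stricter set, Utf1 and Dnmt3b had a Spearman rho of 0.46, against 0.29 in VE cyst cells. The summed Epi panel had a rho of 0.07 with Utf1, 0.03 with Dnmt3b and 0.26 with Slc16a3, described below. Its median was 9 UMIs in these 214 cells and 8 in VE cyst cells. With so few panel UMIs, a low rho cannot tell where the transcripts came from. Gng2, a G protein subunit gene and itself in the panel, had 27.1 CPM in the 230 cells against 2.79 CPM in VE cyst endoderm, and its rho with the other panel genes was 0.22. These are descriptions across cells of 1 library that share its depth and free RNA. Dppa5a, an RNA-binding pluripotency gene, also passed 2-fold and stood above its Epi level, with 1487 CPM against 696 CPM in VE cyst endoderm and 647 CPM in Epi cells.

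Other Epi genes were carried largely by the 19 cells. Those cells held 78.1% of the members' UMIs of Pou3f1, a POU factor of the primed epiblast, which had 19.05 CPM in all members but 4.72 CPM in the 230 cells, against 4.06 CPM in VE cyst endoderm. They held 79.1% of the Pim2 UMIs, and the kinase gene Pim2 had 27.5 CPM in all members and 6.50 CPM in the 230 cells, against 2.54 CPM in VE cyst endoderm. Tdgf1, the Nodal co-receptor Cripto, had 6.33 CPM in all members, 0.508 CPM in the 230 cells and 0.507 CPM in VE cyst endoderm. In Pcbp4, Mnd1 and Zfp593 the 19 cells mattered less. Pcbp4, an RNA-binding protein gene, had 98.4 CPM in all members and 93.1 CPM in the 230 cells, against 28.5 CPM in VE cyst endoderm, Mnd1 had 41.7 and 37.1 CPM against 13.5 CPM in VE cyst endoderm, and Zfp593 had 64.8 and 65.1 CPM against 24.8 CPM in VE cyst endoderm. Their Epi levels were 156 CPM for Pcbp4, 108 CPM for Mnd1 and 65.9 CPM for Zfp593. Trh, listed as a definitive endoderm marker, had 14.4 CPM in all members but 0.761 CPM in the 230 cells, against 1.27 CPM in VE cyst endoderm, and 93.8 CPM in Epi cells.

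**Figure D2:**
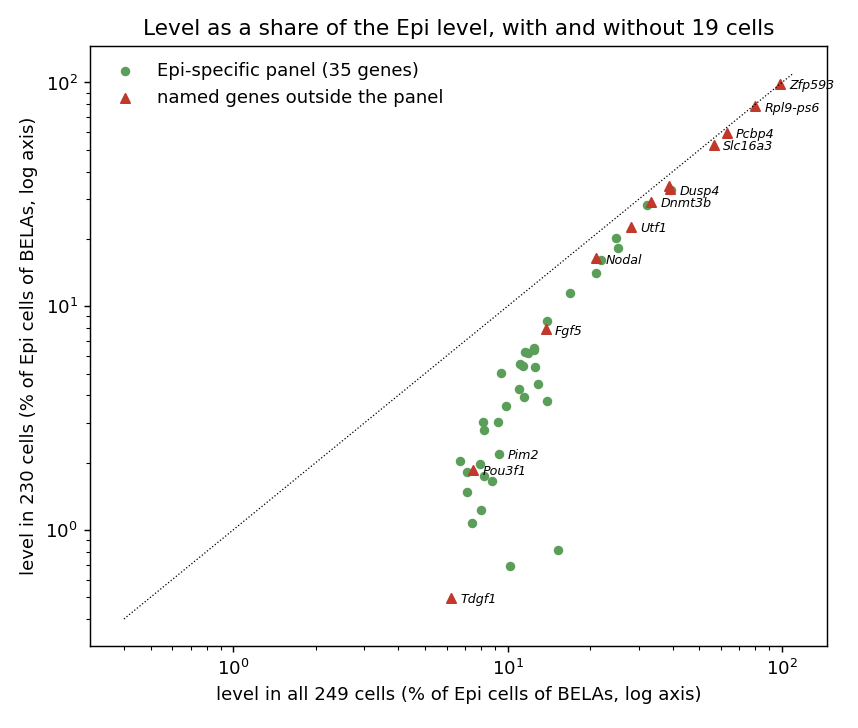
Level of each gene as a percent of its level in Epi cells of BELAs, in all 249 cells (x axis) and in the 230 cells without the 19 of raised Epi to VE marker ratio (y axis), both axes log; the dotted line marks equality. Most of the 35 panel genes (green) fall well under the line, as do Pou3f1 and Tdgf1 (red triangles), whereas Utf1 (28.2 and 22.7%), Dnmt3b and Slc16a3 (56.7 and 52.7%) lie close to it.

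Genes of glucose metabolism lay higher as a list. Of 22 genes of glycolysis and the hypoxia response, 21 were tested, 18 of them above 0, with a median of 0.53 (0.52 in the 230 cells), and 2 passed 2-fold. Pfkp, the platelet-type phosphofructokinase, had 38.0 CPM against 7.95 CPM in VE cyst endoderm (ratio 4.78, 4.17 to 5.49). Hk2, the inducible hexokinase, had 91.6 CPM against 35.3 CPM in VE cyst endoderm (ratio 2.60, 2.42 to 2.79). Both also exceeded their levels in the other VE cells of BELAs, 29.6 CPM for Pfkp and 62.6 CPM for Hk2, and in Epi cells, 26.3 CPM for Pfkp and 71.0 CPM for Hk2. Pgam1 and Pgk1, enzymes of the lower pathway, had ratios of 1.92 and 1.79. Of the glucose carriers, Slc2a1 had 232 CPM against 291 CPM in VE cyst endoderm, and Slc2a3 had 1034 CPM against 1035 CPM in VE cyst endoderm.

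Slc16a3, the lactate exporter MCT4, was outside the list and was named by its ratio. It had 107 CPM (102.6 to 111.3) against 22.5 CPM (21.0 to 24.1) in VE cyst endoderm, a ratio of 4.75, and 99.3 CPM in the 230 cells, 52.7% of its Epi level. After thinning, 75.5% of Lhx1-negative BELA cells held a UMI, against 40.4% of VE cyst cells. Among the thinned Lhx1-negative BELA cells, Slc16a3 varied with the summed list (rho 0.63 over 233 cells), and in VE cyst cells rho was 0.28 over 473 cells.

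The promoters of Slc16a3 and Hk2 are shown because both genes were higher and both hold the hypoxia response core. The core searched was ACGTG on both strands, so that CACGT marks it on the other strand, and some matches are also part of the E-box CACGTG. RefSeq sequence of the 250 bases before each annotated start held it in 16.6% of 32851 mouse promoters. In the list it was in 13 of 30 promoters (43.3%), belonging to 12 of 21 genes with an entry. It was in 5 of 15 promoters of G2/M genes (33.3%) and in 3 of 24 promoters of the genes named by rule as higher (12.5%), a share under that of all promoters. Slc16a3 lies at chr11:120948817-120949066 on the plus strand and Hk2 at chr6:82774455-82774704 on the minus strand, both in GRCm38.p6 and printed 5′ to 3′ with the core in capitals.
Slc16a3: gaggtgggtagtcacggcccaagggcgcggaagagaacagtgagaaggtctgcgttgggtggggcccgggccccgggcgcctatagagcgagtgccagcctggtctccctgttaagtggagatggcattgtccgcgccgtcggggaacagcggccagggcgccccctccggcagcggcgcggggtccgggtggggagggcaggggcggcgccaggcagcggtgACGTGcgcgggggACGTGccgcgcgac
Hk2: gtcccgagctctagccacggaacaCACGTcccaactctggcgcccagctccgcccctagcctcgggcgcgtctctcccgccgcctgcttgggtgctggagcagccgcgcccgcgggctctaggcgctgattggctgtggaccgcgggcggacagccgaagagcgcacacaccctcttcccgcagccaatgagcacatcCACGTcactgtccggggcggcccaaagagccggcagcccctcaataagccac
Slc16a3 held 2 copies, beginning 27 and 14 bases before the start, and Hk2 held 2, beginning 226 and 52 bases before it. None was found in the 250 bases before the Pfkp start. Slc2a1, which was lower in Lhx1-negative BELA endoderm, also held the core, beginning 36 bases before its start. A match describes these letters only and was not tested for binding.

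Basement membrane genes lay lower. Of 16 listed components, 14 were tested, 11 of them below 0, and 3 were 2-fold lower, with a median of -0.55 (-0.47 in the 230 cells). Col4a1 had 2025 CPM (2007 to 2044) against 5180.4 CPM (5157 to 5204) in VE cyst endoderm, 2.56-fold lower. Its partner chain Col4a2 had 973 CPM against 2313 CPM in VE cyst endoderm, 2.38-fold lower, and Fn1, fibronectin, 45.8 CPM against 129 CPM in VE cyst endoderm. Sparc, a collagen-binding protein and the most abundant of the list, had 6571 CPM against 12104 CPM in VE cyst endoderm. The laminin chains Lama1, Lamb1 and Lamc1 had log2 ratios between -0.57 and -0.53, while Hspg2, perlecan, was at 157 CPM against 149.9 CPM in VE cyst endoderm. In the other VE cells of BELAs, set against the same VE cyst cells, the list median was -1.55.

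The enzymes that modify and fold collagen also lay lower. All 10 tested of 11 genes were below 0, none past 2-fold, with a median of -0.62, and Serpinh1, the collagen chaperone, had 1517 CPM against 2429.8 CPM in VE cyst endoderm. Of 11 other parietal endoderm genes, 10 were tested and 3 were 2-fold lower, with a median of -0.75. Plat, tissue plasminogen activator, had 45.7 CPM against 118 CPM in VE cyst endoderm. Pth1r, the parathyroid hormone receptor of parietal endoderm, had 347 CPM against 720.3 CPM in VE cyst endoderm, and Vim, vimentin, 29.2 CPM against 77.7 CPM in VE cyst endoderm. Without the 19 cells Pth1r was at a log2 ratio of -0.95, just short of 2-fold. Snai1, a repressor of epithelial genes, went the other way, with 16.9 CPM against 7.50 CPM in VE cyst endoderm. Set against the same VE cyst cells, the other VE cells of BELAs had medians of -0.96 for the collagen enzymes and -1.72 for these parietal endoderm genes. In thinned cells the summed basement membrane list had a median of 483 UMIs (quartiles 362 to 589) against 945 (762 to 1150) in VE cyst cells.

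**Figure D3:**
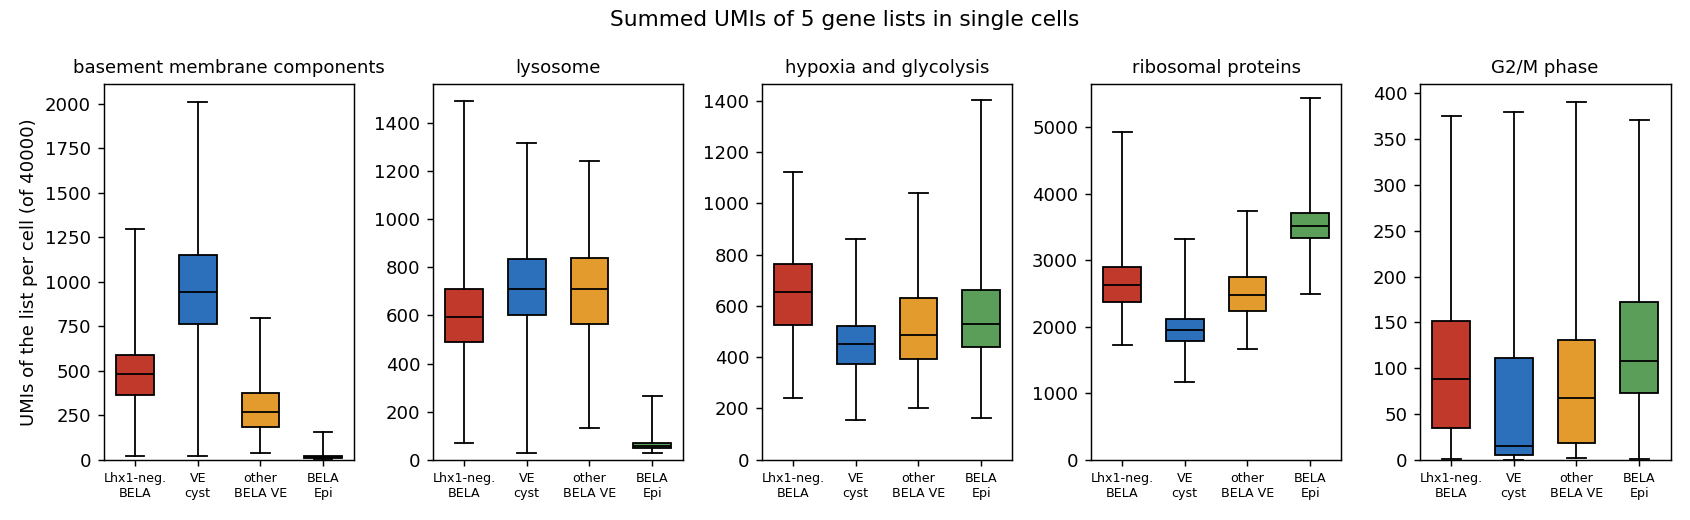
Summed UMIs of 5 gene lists in single cells thinned to 40000 UMIs, for Lhx1-negative BELA endoderm (red, 233 cells), VE cyst endoderm (blue, 473 cells), other VE cells of BELAs (orange, 281 cells) and Epi cells of BELAs (green, 801 cells). Boxes show quartiles and the median and whiskers the full range; basement membrane medians were 483 against 945 in VE cysts, and glycolysis medians 655 against 450.

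The summed endocytic list was close between the groups, while lysosomal genes lay lower. Cubn, used in the choice of cells and so outside the list, had thinned medians of 24 UMIs against 35 in VE cyst cells. Of 9 tested endocytic genes none passed 2-fold, with a median of -0.32, and the summed list had a median of 163 UMIs per thinned cell in both Lhx1-negative BELA and VE cyst endoderm. Amn, amnionless, which carries cubilin to the surface, had the highest log2 ratio of the list (0.71), with 1026 CPM against 627 CPM in VE cyst endoderm. The lowest (-0.85) was that of Igf2r, the receptor that sorts lysosomal enzymes, with 85.4 CPM against 158 CPM in VE cyst endoderm. Lrp2, megalin, had 341 CPM against 358 CPM in VE cyst endoderm. Of 16 lysosomal genes, 14 were below 0 and 2 were 2-fold lower, with a median of -0.42. Their summed list had a median of 594 UMIs per thinned cell, against 710 in VE cyst cells and 709 in the other VE cells of BELAs. The 2 were Psap, the saposin precursor, with 175 CPM against 367 CPM in VE cyst endoderm, and Grn, progranulin, with 157 CPM against 363 CPM in VE cyst endoderm. Ctsc, cathepsin C, had 532 CPM against 348 CPM in VE cyst endoderm. Of 8 tested endoderm transcription factors none passed 2-fold, with Gata4 at 112 CPM against 126 CPM in VE cyst endoderm. Whether transcripts of the GATA4 transgene were counted with Gata4 is not given in the sources used here.

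Secreted serum proteins divided. Of 19 listed genes, 14 were tested and 4 were 2-fold lower, with a median of -0.17, close to that of all genes. In the other VE cells of BELAs, set against the same VE cyst cells, the list median was 0.44. Rbp4, the retinol carrier, had 68.5 CPM (65.1 to 72.0) against 568 CPM (560.2 to 575.9) in VE cyst endoderm, 8.29-fold lower, and UMIs in 34.8% of thinned cells against 86.5% of VE cyst cells. Ttr, transthyretin, had 379 CPM against 1261 CPM in VE cyst endoderm, with thinned medians of 6 and 38 UMIs in those groups. The thinned Ttr median of the other VE cells of BELAs was 31 UMIs. Afp, alpha-fetoprotein, had 1.80 CPM against 37.8 CPM in VE cyst endoderm, and Apoa2 had 7.91 against 56.7 CPM in VE cyst endoderm. The VE cyst levels of these last genes came from few cells, since the 10% of VE cyst cells with the most held 93.0% of the Afp UMIs and 85.4% of those of Apoa2. Apoe, by far the most abundant of the list, had 5069 CPM against 4816 CPM in VE cyst endoderm. Apoc2 and Apom had log2 ratios of 0.45 and 0.39, and Apoa1 had 0.07 in all cells but -0.29 in the 230 cells.

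Several other absorptive or secretory genes were among the lowest. Clps, colipase, had 32.0 CPM against 149.6 CPM in VE cyst endoderm, and Fabp1, a fatty acid carrier, had 4.81 CPM against 32.2 CPM in VE cyst endoderm. Slc28a2, a nucleoside transporter, and Enpp1, an ectonucleotidase, were 7.14-fold and 7.95-fold lower. The other VE cells of BELAs had thinned means of 0.484, 0.214, 0.192 and 0.0854 UMIs for Clps, Fabp1, Slc28a2 and Enpp1. Those of VE cyst cells were 6.32, 1.31, 1.31 and 1.18 UMIs, so these 4 genes were also lower in the other VE cells of BELAs. Of 12 tested gut-type and yolk sac genes, Pga5, a pepsinogen gene, was 2-fold higher, with 399 CPM against 173 CPM in VE cyst endoderm, and Slc2a2, the liver-type glucose carrier, was lower, with 1.44 CPM against 9.33 CPM in VE cyst endoderm. The median of that list was -0.20, and 0.97 in the other VE cells of BELAs set against the same VE cyst cells. Spink1 and Cited1, yolk sac genes at high levels, had 2213 and 652 CPM in Lhx1-negative BELA endoderm, and 1604 and 896 CPM in VE cyst endoderm.

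BMP target genes were among the lower genes. Of 15 listed, 6 were tested, 5 of them below 0, and 2 were 2-fold lower, with a median of -0.60. Id3, an inhibitor of helix-loop-helix factors, had 8.94 CPM (7.74 to 10.3) against 67.7 CPM (65.0 to 70.4) in VE cyst endoderm, 7.57-fold lower. The 19 cells held 53.8% of the members' Id3 UMIs, and in the 230 cells Id3 was at 4.67 CPM. Id2 had 73.1 CPM against 221 CPM in VE cyst endoderm, and Id1 had 30.2 CPM against 64.0 CPM in VE cyst endoderm, a log2 ratio of -0.97. Smad7, an inhibitory SMAD gene, was at 27.8 CPM against 23.3 CPM in VE cyst endoderm. The 7 tested BMP ligands and receptors held no gene past 2-fold, and their median was -0.47. Hes1, a repressor induced by Notch and other signals, was 4.05-fold lower, at 88.0 CPM against 357 CPM in VE cyst endoderm, with thinned medians of 2 and 11 UMIs per cell in those groups. The thinned Hes1 median of the other VE cells of BELAs was also 2 UMIs. Their thinned means were 0.786 UMIs for Id3 and 2.12 for Id2. These means were 0.296 and 3.11 in Lhx1-negative cells and 2.69 and 8.94 in VE cyst cells.

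Of 6 tested FGF ligands and receptors, 1 was 2-fold higher and 1 lower, with a median of -0.34. The ligand Fgf10 was higher, as above, and Fgf3 had 35.5 CPM against 15.8 CPM in VE cyst endoderm, a log2 ratio of 0.96 in all cells and 1.06 in the 230 cells. Fgf3 was at 9.76 CPM in the other VE cells of BELAs. Fgfr4, an endodermal FGF receptor, was 2.62-fold lower, at 14.6 CPM against 38.2 CPM in VE cyst endoderm, while Fgfr2 and Fgfr3 had log2 ratios of -0.30 and -0.38. Of 14 tested FGF and ERK targets, 4 were 2-fold higher and none lower, with a median of 0.50 in all cells and in the 230 cells. Etv4, an ETS factor, had 24.9 CPM against 5.35 CPM in VE cyst endoderm and was found in 56.2% of thinned cells against 12.5% of VE cyst cells. Dusp4, a MAP kinase phosphatase, had 21.6 CPM against 4.03 CPM in VE cyst endoderm and 55.1 CPM in Epi cells, and Fos and Ier3, immediate early genes, had ratios of 3.40 and 2.36. Dusp4 and Fos were uneven, with 66.2% and 75.4% of their UMIs in 10% of the Lhx1-negative BELA cells. Spry2, Etv5 and Egr1, further targets, had log2 ratios of 0.26, -0.09 and 0.01.

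Of 12 embryonic and anterior VE genes outside the rule, 7 were tested, with 1 at least 2-fold higher, 2 lower and a median of 0.35. Sfrp5, a secreted Wnt antagonist, had the lowest log2 ratio of the named genes (-3.17), with 4.99 CPM against 84.9 CPM in VE cyst endoderm, and 31.4 CPM in the other VE cells of BELAs. Frzb, another such antagonist, had 8.85 CPM against 33.8 CPM in VE cyst endoderm. Fgf5, the higher gene, had 12.4 CPM in all cells and 7.11 CPM in the 230 cells, against 1.04 CPM in VE cyst endoderm, and 86.6 CPM in the other VE cells of BELAs. The Fgf5 level of the 230 cells was 7.88% of that in Epi cells, where the panel's upper quartile was 6.46%. Nodal had 7.23 CPM in all cells and 5.63 CPM in the 230 cells against 1.16 CPM in VE cyst endoderm, and Eomes, a T-box factor of the embryonic VE, had 9.52 CPM against 6.40 CPM in VE cyst endoderm. Of 12 tested Nodal receptors, co-receptors and responders, Tdgf1 passed 2-fold through the 19 cells, and Cfc1, the Nodal co-receptor Cryptic, was 2-fold lower, at 1.84 CPM against 9.02 CPM in VE cyst endoderm. Hhex and Dkk1, AVE genes outside the rule, had log2 ratios of 0.28 and 0.56. Of 4 tested beta-catenin targets none passed 2-fold, and Axin2 was at 2.61 CPM against 4.45 CPM in VE cyst endoderm. Wls, which carries Wnt proteins to the surface, was 2.33-fold lower.

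**Figure D4:**
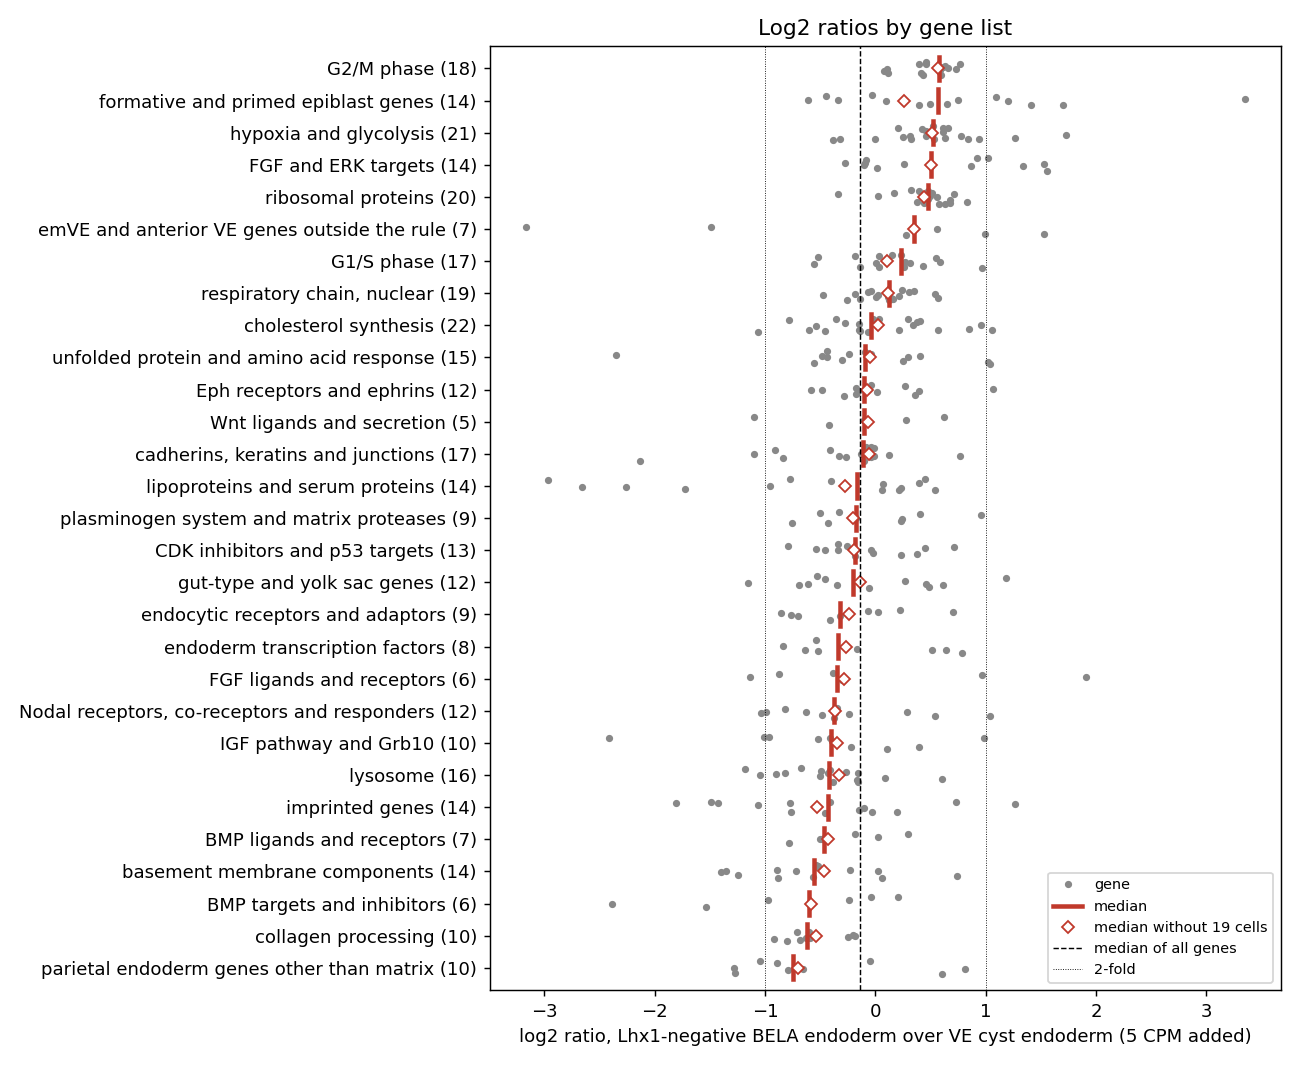
Log2 ratios of Lhx1-negative BELA endoderm over VE cyst endoderm (5 CPM added) for the genes of 29 lists with at least 5 genes tested, with the number tested in brackets; grey points are genes, red lines list medians and open diamonds medians in the 230 cells. The dashed line is the median of all genes (-0.14) and dotted lines mark 2-fold; the G2/M median (0.57) lies at the top and that of parietal endoderm genes (-0.75) at the bottom.

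Proliferation genes were higher across their list without large ratios. All 18 genes of the G2/M phase were above 0 and none passed 2-fold, with a median of 0.57 in all cells and in the 230 cells. The summed list had a median of 88 UMIs per thinned cell (quartiles 35 to 151) against 15 (5 to 111) in VE cyst cells. The upper quartiles were therefore nearer than the medians. Top2a, a topoisomerase of dividing cells, had a UMI in 86.7% of thinned cells against 61.7% of VE cyst cells, and Mki67 in 78.1% against 49.9% of VE cyst cells. G1/S genes had a median of 0.23 (0.11 in the 230 cells). Cdkn1c, a cell cycle inhibitor from an imprinted locus, had 10.4 CPM against 48.9 CPM in VE cyst endoderm, while the 13 tested CDK inhibitors and p53 targets of the separate list held none past 2-fold. Of 20 ribosomal protein genes, 19 were above 0, with a median of 0.48 and log2 ratios from -0.34 (Rpl10) to 0.83 (Rpl18).

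Of 14 tested imprinted genes, 4 were 2-fold lower and 1 higher. H19, a noncoding RNA, had 71.0 CPM against 26.7 CPM in VE cyst endoderm, and 3.22 CPM in Epi cells. H19 was uneven, with 70.1% of its thinned UMIs in 10% of Lhx1-negative BELA cells and 91.1% in 10% of VE cyst cells. Its thinned mean was 5.74 UMIs in the other VE cells of BELAs against 2.49 in Lhx1-negative cells, so it was not particular to the latter. Dlk1, a Notch-like membrane protein gene, had 28.4 CPM against 84.9 CPM in VE cyst endoderm, and Ndn and Peg10 were 3.39-fold and 2.37-fold lower. Peg10 was at a log2 ratio of -0.96 in the 230 cells. By thinned means, Dlk1 and Ndn were also lower in the other VE cells of BELAs (1.19 and 0.619 UMIs) than in VE cyst cells (3.37 and 2.26). Peg10 was not, with 1.78 UMIs in the other VE cells of BELAs and 1.72 in VE cyst cells. Of 10 tested genes of the IGF pathway, 2 were 2-fold lower. Igfbp5, an IGF-binding protein, had 4.04 CPM against 43.3 CPM in VE cyst endoderm, and Igf1 had 1.08 CPM against 7.24 CPM in VE cyst endoderm.

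Adhesion genes had a median of -0.11, near the -0.14 of all genes. Of 17 tested, 2 were past 2-fold, both lower, where 3.6% of all genes tested were past it in either direction. Itga6, a laminin-binding integrin subunit, had 21.2 CPM against 109 CPM in VE cyst endoderm, 5.17-fold lower, and Ocln, occludin, had 19.2 CPM against 47.0 CPM in VE cyst endoderm. Itga5 and Itgb1, which pair as a fibronectin receptor, had log2 ratios of -0.04 and -0.09. Efna3, an ephrin, was the 1 gene of 12 tested Eph and ephrin genes past 2-fold, with 183 CPM against 85.0 CPM in VE cyst endoderm. Further genes named by rule as lower included Epas1, the hypoxia-inducible factor HIF-2 alpha, with 59.7 CPM against 231 CPM in VE cyst endoderm, Sesn3, a sestrin, with 28.3 CPM against 165 CPM in VE cyst endoderm, and the secreted proteoglycan gene Spock1, with 28.1 CPM against 159 CPM in VE cyst endoderm. Stmn1, Mxd4, Rap1gap and Pdlim4 were between 3.87-fold and 5.42-fold lower. By thinned means, the other VE cells of BELAs also lay under VE cyst cells in every lower gene of this paragraph. Epas1 had 1.04 UMIs there, 2.67 in Lhx1-negative cells and 9.44 in VE cyst cells, and Itga6 had 0.63, 0.96 and 4.55. The lower levels were therefore not particular to Lhx1-negative cells. Ocln, Stmn1 and Mxd4 were lowest in Lhx1-negative cells, the others in the other VE cells of BELAs.

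**Figure D5:**
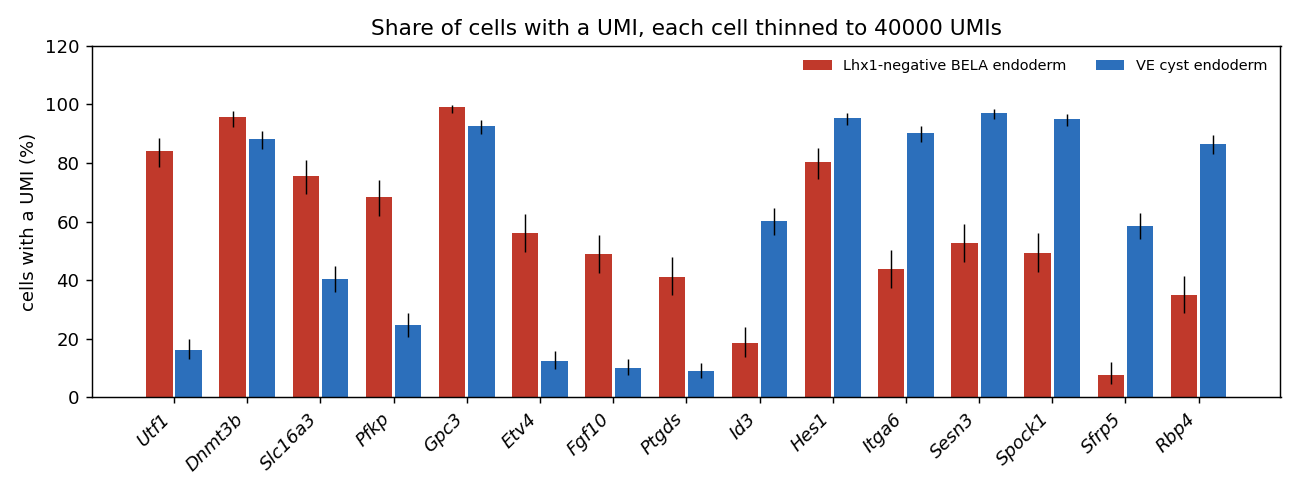
Share of cells with at least 1 UMI of 15 genes after thinning each cell to 40000 UMIs, in Lhx1-negative BELA endoderm (red, 233 cells) and VE cyst endoderm (blue, 473 cells), with exact binomial intervals. Utf1 was found in 84.1% of Lhx1-negative BELA cells against 16.3% of VE cyst cells, and Sfrp5 in 7.73% against 58.6%.

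Markers of other cell types were low. Of the 10 trophoblast, 10 mesoderm and streak, 8 definitive endoderm, 8 blood and endothelium, 8 neural and 7 fibroblast genes, 2, 1, 3, 2, 1 and 0 reached 5 CPM in either group. Their summed levels in Lhx1-negative BELA endoderm were 95.5, 13.3, 33.2, 40.0, 10.5 and 2.07 CPM in that order, against 153, 8.12, 91.3, 38.7, 5.72 and 0.620 CPM in VE cyst endoderm. In Lhx1-negative BELA endoderm 3, 2, 1, 1, 0 and 4 genes of these lists had no UMI. Nepn and Cpm, listed with the definitive endoderm, were 2-fold lower, with 1.21 and 16.2 CPM in Lhx1-negative BELA endoderm and 34.0 and 54.0 CPM in VE cyst endoderm. The part of the 19 cells with a raised Epi marker ratio, of depth and of free RNA in each difference was not tested beyond the values given beside it.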

How the data were processed

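The 3 libraries of 10x Genomics 3′ single-cell RNA-seq (BELAs, Epi cysts, VE cysts) were analysed. The deposited matrices hold raw UMI counts, made by the authors with Cell Ranger 4.0.0 on mm10. Barcodes were kept with 4000 or more genes and a mitochondrial share of UMIs up to 10%. UMIs were summed over the cells of a group and divided by all UMIs of the group (CPM). Ratios were formed with 5 CPM added, over genes with at least 5 CPM in either group. Levels have exact 95% Poisson intervals, ratios exact conditional binomial intervals and shares Clopper-Pearson intervals. Cells were thinned to 40000 UMIs, which left out 16 of 249 and 104 of 577 cells. Doublets were kept, and Scrublet calls (scanpy 1.11.5) served as an alternative. With 1 library per condition no test was made and no p-value is given. The ratio calculation was tested on simulated data.

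Named genes had at least 20 CPM in either group and were the 15 highest ratios above the Epi level, the 10 highest of the others and the 20 lowest, plus list genes past 2-fold and list genes named for their role. The Epi panel held genes with at least 50 CPM in Epi cells of BELAs and over 10 times their VE cyst endoderm level. Genes of the rule and of the embryonic VE, Nodal, FGF and formative epiblast lists were left out of it. The members and the gene lists were chosen with earlier results of these data known. Rpl9-ps6, a pseudogene named by the rule, shares reads with its parent gene and is uncertain. A few single genes that this rule names are not reported here. Promoter sequence is RefSeq GRCm38.p6.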

Additional observations from a re-analysis of the deposited data

How the results depend on the processing

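No paired analysis was possible because each condition was 1 library. Over 16 alternatives, 1 of them (the 230 cells against all VE cyst cells) added after seeing the data, the count of higher genes ranged from 75 to 134 and that of lower genes from 173 to 273, apart from the amount added to each level. With 1 CPM added, 211 genes were higher and 585 lower, and with 20 CPM added, 28 were higher and 68 lower, so the counts depend on it. Scaling by the median ratio gave 134 higher and 198 lower genes. Of the 45 genes named by rule, 33 were past 2-fold at every setting and 12 were not at 1 setting or more. Pim2 turned to a log2 ratio of -0.59 when 11.4% of the Epi profile was subtracted. The median of the embryonic and anterior VE list turned to -1.49 when only its 3 genes with at least 20 CPM were kept. No other of the 45 genes reversed. A list median was counted as reversed only if its main value was at least 0.3 in size, and none of the other 30 was. Smaller medians could change sign, as that of cholesterol synthesis did, from -0.04 to 0.02 in the 230 cells. Depth limits the low genes: 3 UMIs in a group correspond to 0.135 CPM in Lhx1-negative BELA endoderm and 0.0845 CPM in VE cyst endoderm.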

Other observations

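Cholesterol synthesis genes did not move as a list, with a median of -0.04 over 22 genes. Pmvk, phosphomevalonate kinase, had 161 CPM in Lhx1-negative BELA endoderm against 74.8 CPM in VE cyst endoderm and 77.9 CPM in Epi cells. In the unfolded protein and amino acid response list, Asns, asparagine synthetase, had 116 CPM against 54.1 CPM in VE cyst endoderm and 140 CPM in Epi cells, and Atf3, a stress-induced factor, 29.8 CPM against 12.2 CPM in VE cyst endoderm, while the chaperone gene Hspa5 was at 745 CPM against 796 CPM in VE cyst endoderm. Asns was at a log2 ratio of 0.92 in the 230 cells. Nuclear genes of the respiratory chain had a median of 0.13 over 19 genes, none past 2-fold.

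Across thinned cells, the summed glycolysis and basement membrane lists had a rho of 0.10 in Lhx1-negative BELA endoderm and -0.49 in VE cyst endoderm. Lysosomal and endocytic sums went together in both, with a rho of 0.73 in Lhx1-negative BELA endoderm and 0.59 in VE cyst endoderm. Anxa2 and Amn had a rho of -0.31 in Lhx1-negative BELA endoderm and -0.02 in VE cyst endoderm, and Anxa2 had a rho of 0.37 with the basement membrane list in Lhx1-negative BELA endoderm. These are descriptions over 233 and 473 cells that share a library within each group, and their difference was not tested.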
